A study of Homo sapiens with 6 samples.

Results

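The clustered protocadherins are cell-surface adhesion genes that lie in 3 neighbouring arrays, alpha, beta and gamma, on human chromosome 5. Members were taken by symbol, as PCDHA, PCDHB followed by a digit, PCDHGA, PCDHGB or PCDHGC, without the 4 symbols of pseudogenes. This gave 53 of the 28278 gene symbols in each count table, of which 15 were alpha, 16 beta and 22 gamma. They were measured by sequencing of polyadenylated RNA from RKO, an established human colon carcinoma cell line, in 3 libraries of GSK3B knockout cells (KO) and 3 of cells with wild-type GSK3B (WT). GSK3B encodes a serine/threonine kinase. The labels name no treatment for either group, and say neither how GSK3B was disrupted, nor if the KO cells are 1 clone, nor if replicates were grown apart. A p-value here thus reflects the spread of these libraries alone, and that spread may be technical.

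Clustered protocadherins bind their own kind on a neighbouring cell, and the set that a neuron makes helps its branches tell self from other. Each member has its own promoter and a large variable exon that encodes the extracellular, transmembrane and first intracellular part. In the alpha and gamma arrays this exon is spliced to a set of last exons that all genes of the array share. These last exons encode a common intracellular end. Beta genes have no such shared end and are mostly carried by a single coding exon.

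On the hg38 build with GENCODE 29, all members are on the plus strand of chromosome 5. The alpha array spans chr5:140786136-141012347, the beta array chr5:141051135-141249365 and the gamma array chr5:141330571-141512981. The shared exons have 59, 89 and 2718 bases in the alpha array and 59, 89 and 2033 bases in the gamma array. Together these come to 2866 and 2181 bases. The splice junctions below are shown because the sharing of these exons carries the main result. Each line joins the last 30 bases of a member's variable exon, in lower case, to the first 30 bases of the shared exon, in capitals, from 5′ to 3′. The alpha variable ends lie at chr5:140809543-140809572 for PCDHA4 and chr5:140969302-140969331 for PCDHAC2, and both join chr5:140978949-140978978. The gamma variable ends lie at chr5:141362527-141362556 for PCDHGB2, chr5:141415582-141415611 for PCDHGA10, chr5:141478517-141478546 for PCDHGC3 and chr5:141491671-141491700 for PCDHGC5, and all join chr5:141494807-141494836.
PCDHA4: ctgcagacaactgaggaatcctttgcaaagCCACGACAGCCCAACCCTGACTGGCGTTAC
PCDHAC2: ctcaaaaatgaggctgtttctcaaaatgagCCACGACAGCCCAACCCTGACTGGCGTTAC
PCDHGB2: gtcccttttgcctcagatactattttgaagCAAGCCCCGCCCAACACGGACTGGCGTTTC
PCDHGA10: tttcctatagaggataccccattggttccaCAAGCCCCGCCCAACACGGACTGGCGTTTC
PCDHGC3: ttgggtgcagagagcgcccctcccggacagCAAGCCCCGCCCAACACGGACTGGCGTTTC
PCDHGC5: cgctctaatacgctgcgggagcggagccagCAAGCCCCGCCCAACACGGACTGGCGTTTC
All 15 alpha junctions carried 1 capital part and all 22 gamma junctions another. The lower-case parts were distinct in all 15 alpha and all 22 gamma genes, with a median pairwise identity of 36.7% in the alpha and 33.3% in the gamma array. A read in the capital part alone cannot be given to a single member.

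Promoters were compared because each member is transcribed from its own. RefSeq windows on GRCh38.p14, 300 bases around the start, were held for 47 of the 53 genes. The letters CGCT are the core of a promoter element described for these genes, which the insulator protein CTCF binds. Read on the forward strand in the 100 bases before the start, they occurred in 12 of 13 alpha, 13 of 14 beta and 19 of 20 gamma genes. A gene was counted if any of its windows held them, and some gamma genes had more than 1, with 25 windows for 20 genes. Taken by window and not by gene, all 35116 windows gave 28.1%. On both strands over the 300 bases, CGCT stood in 70.0% of all windows. The members' windows then gave 12 of 13 alpha, 14 of 14 beta and 25 of 25 gamma. A longer form, GTGGCGCT, was picked after the members' windows had been seen and was searched on both strands over the 300 bases. It contains the shorter one. It stood in 13 of 14 beta windows, 0 of 13 alpha windows and 0 of 25 gamma windows, beside 1.15% of all windows. The following stretches cover 100 bases before and 20 after the start, with forward CGCT in capitals. They lie on the plus strand at chr5:141051274-141051393 for PCDHB1, chr5:141094515-141094634 for PCDHB2, chr5:141213819-141213938 for PCDHB13 and chr5:141412887-141413006 for PCDHGA10, and were chosen as the beta gene listed at 0, the beta gene called, the beta gene with the most counts and a leading gamma gene.
PCDHB1: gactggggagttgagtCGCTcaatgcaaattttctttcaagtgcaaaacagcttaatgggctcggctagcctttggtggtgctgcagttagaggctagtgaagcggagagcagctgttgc
PCDHB2: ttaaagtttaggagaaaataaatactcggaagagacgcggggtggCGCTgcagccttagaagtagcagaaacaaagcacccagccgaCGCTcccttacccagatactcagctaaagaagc
PCDHB13: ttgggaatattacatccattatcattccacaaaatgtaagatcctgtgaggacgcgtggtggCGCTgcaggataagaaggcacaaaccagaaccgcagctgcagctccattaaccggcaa
PCDHGA10: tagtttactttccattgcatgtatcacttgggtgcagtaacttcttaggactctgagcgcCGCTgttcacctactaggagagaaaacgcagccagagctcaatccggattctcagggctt
PCDHB1 was the 1 beta gene with a window that lacked the longer form. These matches describe letters in a window and do not show that the element is present, also where PCDHB1 has CGCT in capitals. No binding was measured.

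GSK3B, the targeted gene, was lower in every KO library. It had 1509, 1527 and 1567 counts in KO replicates 1 to 3, against 3258, 3194 and 3043 in WT replicates 1 to 3. Its log2 fold change was -1.04 ± 0.05 (SE), with an adjusted p of 1.88e-12 (edgeR quasi-likelihood test, Benjamini-Hochberg over all tested genes). Library totals were 32379369 to 33558362 in KO and 32565829 to 33052404 in WT. Of 14409 genes tested, 1951 (13.5%) were called at an adjusted p under 0.05, 917 higher in KO (6.36%) and 1034 lower (7.18%). The groups did not overlap, with all KO libraries on 1 side of all WT libraries, in 31.3% of tested genes. The median log2 fold change of all tested genes was 0.00. Some genes that dividing cells generally use, FBL and NDUFS1 among them, were listed at 0 in all 6 libraries, so a count of 0 was not read as absence.

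Read from the deposited counts, 17 of 22 gamma genes fell in KO, 0 of 15 alpha genes were called, and 1 of 13 tested beta genes, PCDHB2, rose. In all, 18 of the 50 tested members (36%) were called, beside 13.5% of all tested genes. Gamma genes repeat a shared base count, described below, so their calls are not separate and both shares cannot be compared. The gamma fold changes lay between -0.32 and -0.23, with a median of -0.31, and all 22 had an unadjusted p under 0.05, beside 28% of all tested genes. The alpha changes lay between -0.55 and -0.17, with a median of -0.53, and 0 of 15 had an unadjusted p under 0.05. The beta changes lay between -0.41 and 0.62, with a median of 0.07 and 8 of 13 above 0. KO and WT libraries overlapped in all 22 gamma genes. They did not overlap in 1 alpha gene, PCDHAC2, and in 2 beta genes, PCDHB2 and PCDHB11, against 31.3% of tested genes overall. Without KO replicate 2, KO replicate 3, WT replicate 2 or WT replicate 3, 0 gamma genes were called, and without KO replicate 1 or WT replicate 1 all 22 were. PCDHB1, PCDHB5 and PCDHB6 had too few counts to be tested.

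**Figure D1:**
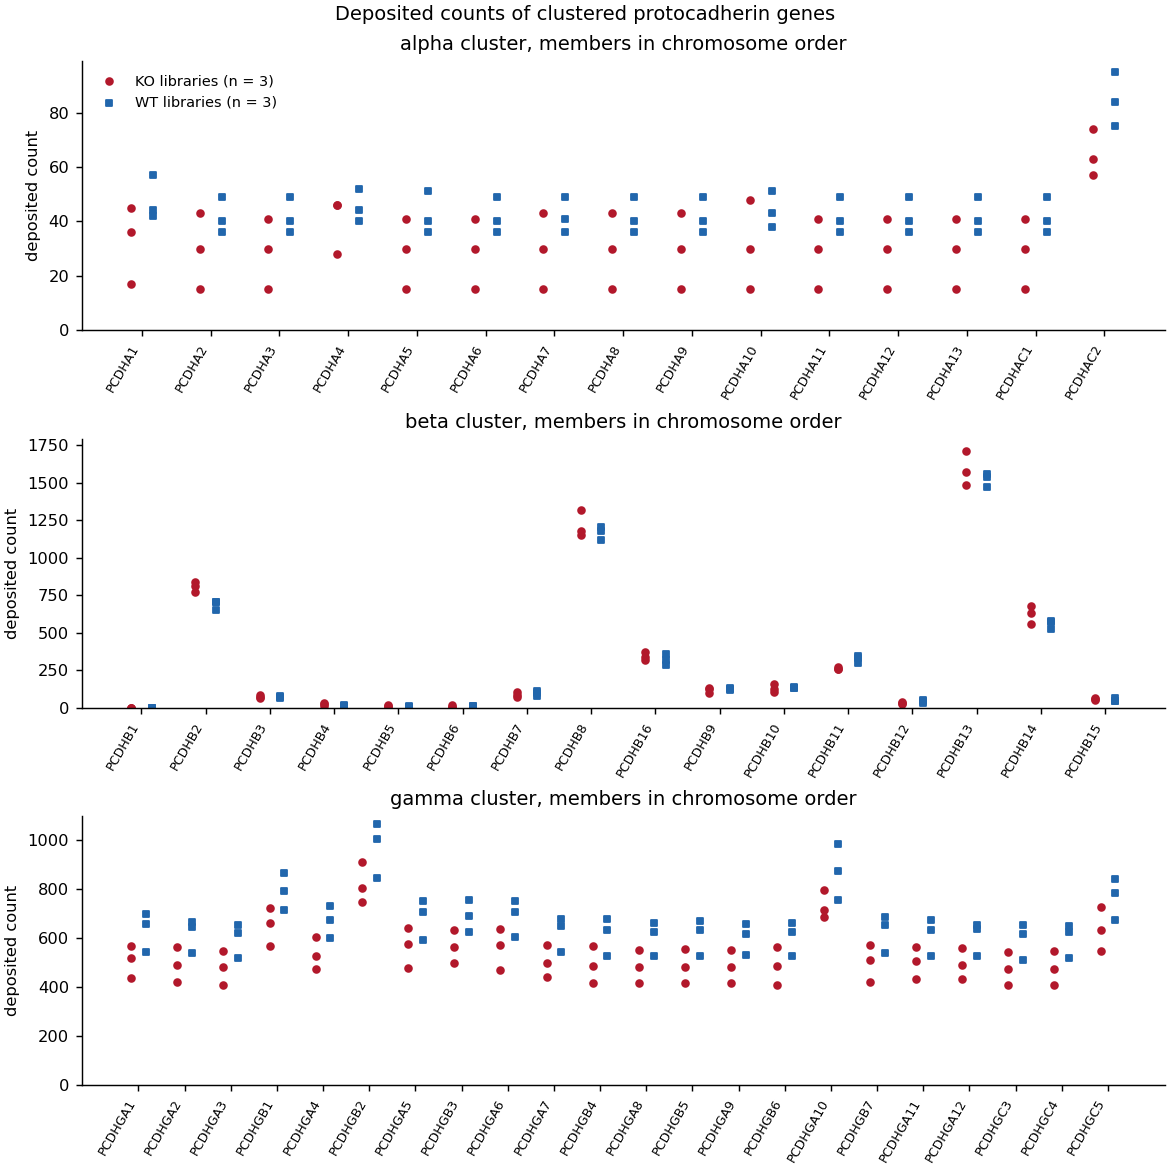
Deposited counts of each member in each library, with KO libraries as circles on the left and WT libraries as squares on the right of each gene, and genes in chromosome order. Alpha and gamma genes share a base count along the array, at 15, 30 and 41 in KO and 40, 49 and 36 in WT for alpha genes, with PCDHAC2, PCDHGB2 and PCDHGA10 well above it, while beta genes range from 0 to 1708.

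The gamma counts had a shared base, and members with few counts above it were near copies of each other. PCDHGC3, a broadly expressed C-type member, had 545, 408 and 472 counts in KO, against 512, 619 and 653 in WT. PCDHGC4, a C-type member needed for survival of interneurons in mice, had 546, 409 and 472 in KO, against 519, 624 and 651 in WT. These genes have separate promoters and differ in their variable exons, but no library gave them counts more than 7 apart. In each library every gamma gene carried at least the same number of counts, which is called the common part here. It was 545, 407 and 472 counts in KO and 512, 618 and 651 in WT. What a member had above it is called its own part. The common part, repeated in each gene, made up 86.5% to 89.9% of the summed gamma counts.

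Alpha genes also had a shared base. The common part was 15, 30 and 41 counts in KO and 40, 49 and 36 in WT, and 6 genes, PCDHA3, PCDHA6, PCDHA11, PCDHA12, PCDHA13 and PCDHAC1, had exactly these counts and 0 of their own in all 6 libraries. It made up 79.8% to 92.3% of the summed alpha counts. No source used here says how the authors assigned reads in the shared exons. The common part may be above what the shared exons hold, since the lowest member may have reads of its own. It may also be below it, if read pairs that reach a variable exon were given to a single gene.

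With the common part counted once, as a separate feature, the 17 gamma calls came down to 1. Its log2 fold change was -0.31 ± 0.10 (SE, 95% interval -0.52 to -0.11), with an adjusted p of 0.0364 (edgeR, n = 3 libraries per group). KO replicate 1, at 545 counts, was above WT replicate 1, at 512, so the groups overlapped. Without KO replicate 2, KO replicate 3, WT replicate 2 or WT replicate 3 it was no longer called, at edgeR adjusted p-values of 0.204, 0.112, 0.15 and 0.118. This choice was made after the data had been seen. Over the alpha, beta and gamma arrays, 2 of 33 tested features (6.06%) were then called, beside 13.5% of all features tested. Lower levels per cell and fewer cells that make these transcripts cannot be told apart in bulk RNA.

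Of the own parts of gamma genes, 17 had enough counts to be tested and 0 were called, beside 13.5% of the 14392 features tested in that table (6.39% higher in KO and 7.09% lower). Of the 17, 0 had an unadjusted p under 0.05, beside 28% of features. With limma-voom 0 of 17 were called, and with DESeq2 0 of the 12 to which it gave an adjusted p. Their median log2 fold change was -0.12, with 13 below and 4 above 0. The groups did not overlap in 1, PCDHGB5, beside 31.4% of features. PCDHGB5 had 9, 8 and 11 own counts in KO, against 16, 15 and 18 in WT, with an edgeR adjusted p of 0.231. The 5 that were not tested, PCDHGA3, PCDHGA8, PCDHGA9, PCDHGC3 and PCDHGC4, had 0 to 19 own counts.

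**Figure D2:**
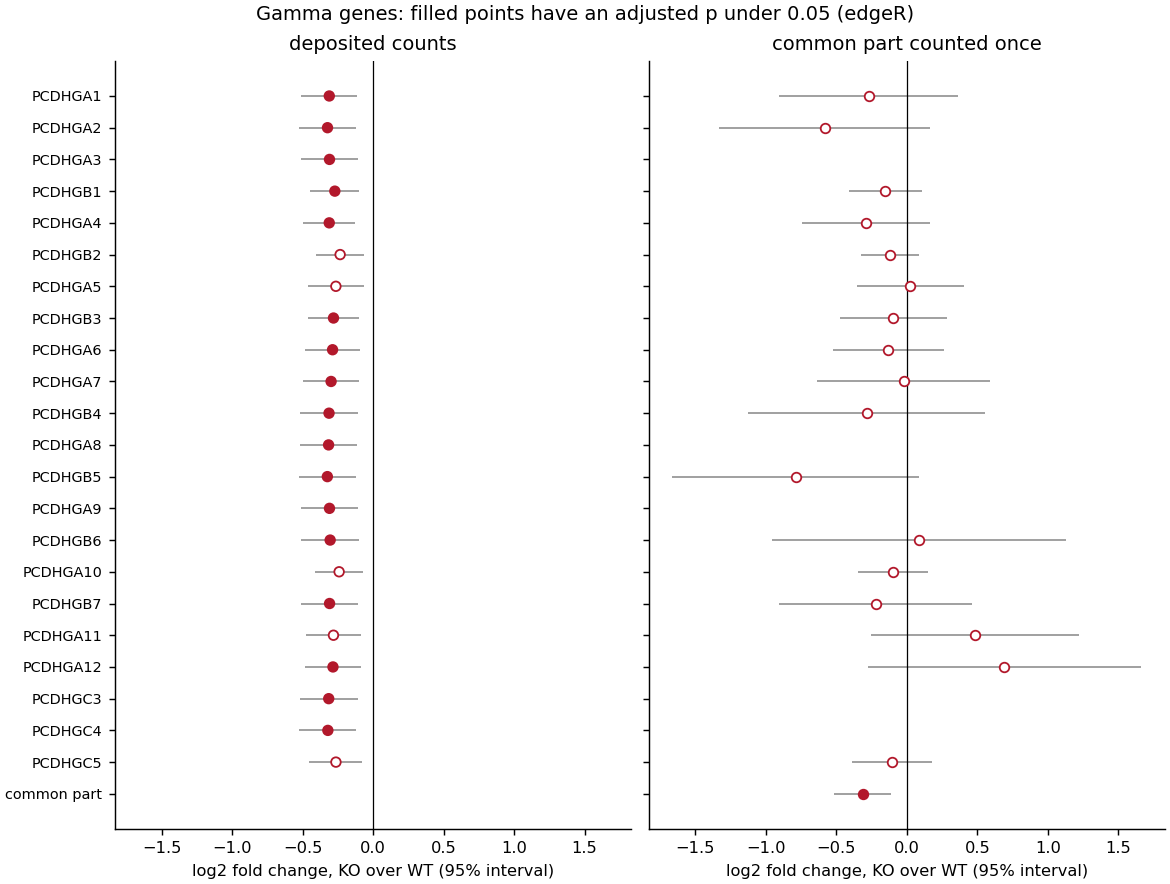
Log2 fold change of each gamma gene, KO over WT, with its 95% interval, from the deposited counts on the left and with the common part counted once on the right. On the left the points stand close together between -0.32 and -0.23 and 17 are filled (called); on the right only the common part, at -0.31, is filled, and genes with no point had too few own counts.

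A few gamma genes held most of the own counts. PCDHGB2 had 367, 341 and 332 own counts in KO, against 333, 386 and 417 in WT, and the groups overlapped. PCDHGA10 had 253, 279 and 243 in KO, against 244, 256 and 336 in WT. PCDHGB1 had 180, 161 and 190 in KO, against 204, 176 and 214 in WT. These are A-type and B-type genes, whose choice is thought to be random in single neurons. PCDHGC5, a C-type gene that is mainly neuronal in mouse brain, had 181, 141 and 160 own counts in KO, against 161, 168 and 193 in WT. Together these 4 genes held 60.7% to 65.9% of the own counts of the array in each library. Their log2 fold changes lay near 0 with wide intervals: that of PCDHGB2 was -0.12 (95% interval -0.32 to 0.09) and that of PCDHGA10 was -0.10 (95% interval -0.35 to 0.15). Intervals of this width do not show that the levels were equal.

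The own parts were also summed over the array. The sum was 46.2, 43.5 and 45.7 CPM (counts scaled to library size, with TMM factors) in KO, against 47.1, 46.5 and 53.5 CPM in WT, a ratio of 0.921. The highest KO value was just under the lowest WT value, and without WT replicate 3 the ratio was 0.965, a log2 ratio of -0.052 in place of -0.12. The common part alone stood at 16.6, 12.6 and 14.2 CPM in KO, against 15.5, 18.9 and 19.5 CPM in WT, a ratio of 0.804. No test was made of sums or of the difference between both ratios. Per kilobase of exon, the summed own parts were at 14.6 ± 0.46 CPM per kb in KO and 15.9 ± 1.20 CPM per kb in WT (SD, n = 3 each). The common part was at 6.64 ± 0.91 CPM per kb in KO and 8.25 ± 0.98 CPM per kb in WT. The summed value adds the levels of 22 genes, each over the exon bases that no other member has. PCDHGB4 and PCDHGA8 share further bases with each other, with 2459 of 6906 and 4214 of 8661 exon bases of their own. Reads in those further bases may count in both own parts, and the length used leaves those bases out. The highest single gamma gene, PCDHGB2, was below the common part, at 4.09 CPM per kb in KO and 4.43 CPM per kb in WT.

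In the alpha array, PCDHAC2 held most of the own counts. PCDHAC2, a C-type gene that serotonergic neurons of mice need to space their axons, had 42, 33 and 33 own counts in KO, against 44, 46 and 39 in WT. Its own part had a log2 fold change of -0.25 (95% interval -0.80 to 0.30) and an edgeR adjusted p of 0.60. It made up 57.9% to 78.6% of the own counts of the array. PCDHA4 had 13, 16 and 5 own counts in KO, against 4, 3 and 4 in WT. The groups did not overlap, but these counts were too low to be tested. The alpha common part had a log2 fold change of -0.53 (95% interval -1.20 to 0.14) and an edgeR adjusted p of 0.299, and KO replicate 3, at 41 counts, was above WT replicates 1 and 3. It was -0.22 without KO replicate 1 and -0.86 without KO replicate 3, with edgeR adjusted p-values of 0.742 and 0.149. At a depth of 15 to 49 counts a change of this size could not be separated from 0. Summed over the array, the own parts were 1.74, 1.71 and 1.71 CPM in KO, against 1.70, 1.86 and 1.53 CPM in WT.

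Beta genes share no last exon and showed no common base count. PCDHB2 was the member that rose. It had 840, 811 and 769 counts in KO, against 707, 654 and 703 in WT, and every KO library was above every WT library. It averaged 24.6 ± 1.33 CPM in KO and 20.9 ± 0.78 CPM in WT (SD, n = 3 each), a fold of 1.18 (95% interval 1.07 to 1.31). The log2 fold change was 0.24 ± 0.07 (SE), with an adjusted p of 0.028 (edgeR). Without KO replicate 1, KO replicate 2 or WT replicate 2 the adjusted p was 0.128, 0.13 and 0.126 (edgeR), so that the call was lost. PCDHB2 lies at chr5:141094578-141098703 and overlaps an antisense transcript over 620 bases, and whether counting used strand is not given. In all, 10 of 16 beta genes have such an overlap, over 32 to 815 bases, with PCDHB11 at 131. PCDHB8, PCDHB16, PCDHB9, PCDHB14 and PCDHB15 also overlap another annotated gene on the same strand.

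PCDHB11 had lower counts in KO but did not pass the test. It had 256, 255 and 273 counts in KO, against 345, 331 and 296 in WT, with no overlap, a log2 fold change of -0.30 ± 0.10 (SE) and an edgeR adjusted p of 0.0572. PCDHB11 was called lower in KO without WT replicate 3 (edgeR adjusted p of 0.0206), and with all libraries under library size alone (0.0443) and a filter of 1 CPM in 3 libraries (0.0482). PCDHB14 had 678, 560 and 634 counts in KO, against 574, 579 and 524 in WT, and its groups overlapped, with a log2 fold change of 0.17 and an edgeR adjusted p of 0.188. The beta genes with the most counts were not called. PCDHB13 had 1574, 1483 and 1708 counts in KO, against 1536, 1473 and 1560 in WT. PCDHB8 had 1180, 1153 and 1316 counts in KO, against 1116, 1176 and 1202 in WT. The other tested members, PCDHB3, PCDHB4, PCDHB7, PCDHB9, PCDHB10, PCDHB12, PCDHB15 and PCDHB16, had 11 to 372 counts and overlapping groups. PCDHB5 had 5 to 14 counts and PCDHB6 had 3 to 14. PCDHB1 was listed at 0 in all 6 libraries, which allows up to 0.0927 CPM in a library (3 counts, counting error only).

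Near-identical stretches limit how far beta genes can be told apart. Windows of 150 bases, the read length, were matched exactly among the genes and pseudogenes of the 3 arrays. Of the windows of PCDHB10, 18.0% recurred in another gene, first PCDHB9. The share was 16.2% for PCDHB8 and 10.5% for PCDHB13, each with the other as first partner. It was 6.99% for PCDHB2, with PCDHB14 first, and 2.89% for PCDHB11. In all 14 of 16 beta, 7 of 15 alpha and 10 of 22 gamma genes shared at least 1 window outside the common exons, up to 14.8% in the gamma array (PCDHGB4). The highest alpha share, 17.7% for PCDHA10, had PCDHA14 as first partner, which is not among the members counted here. PCDHA14 overlaps PCDHA10 on the same strand, so these windows may be the same bases annotated in both genes. This share, and the place of PCDHA10 among the 7, thus cannot be read as a near-identical stretch. Values of genes that share windows are uncertain, and the shares do not measure by how much.

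Summed, the beta genes stood at 164, 161 and 167 CPM in KO, against 157, 153 and 155 CPM in WT. All KO sums were above all WT sums, with a ratio of 1.06. The sum of the deposited gamma counts, with the common part in each gene, was 411, 322 and 358 CPM in KO, against 389, 462 and 483 CPM in WT, a ratio of 0.817 with overlap. The deposited alpha sum was 8.58, 15.7 and 20.2 CPM in KO, against 19.9, 24.3 and 17.7 CPM in WT, a ratio of 0.717 with overlap. On the log2 scale this alpha ratio was -0.48, and it was -0.20 without KO replicate 1 and -0.77 without KO replicate 3. With the common part counted once, these ratios were 0.89 for the gamma and 0.875 for the alpha array. The arrays were not tested against each other.

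**Figure D3:**
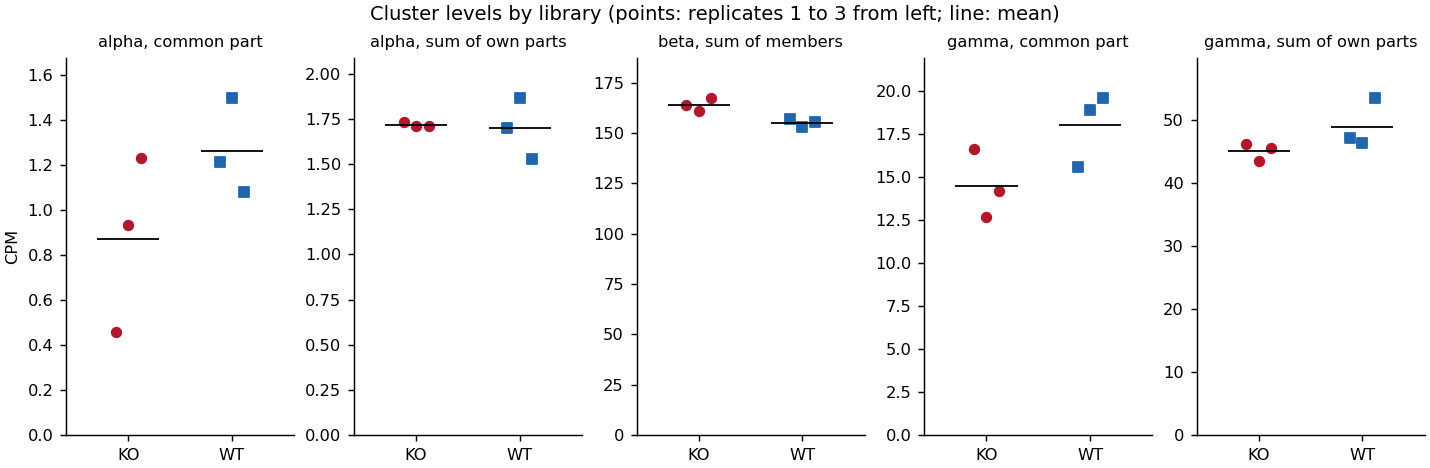
Levels in CPM by library, KO on the left and WT on the right of each panel, with replicates 1 to 3 as points and the mean as a line. The beta sum is 161 to 167 CPM in KO and 153 to 157 CPM in WT, while the alpha and gamma common parts overlap between the groups.

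Per kilobase of own exon, beta genes led. PCDHB8 stood at 13.5 ± 0.77 CPM per kb in KO and 12.9 ± 0.45 CPM per kb in WT, the highest of the members in both groups (SD, n = 3 each). PCDHB13 was next, at 9.57 ± 0.52 CPM per kb in KO and 9.12 ± 0.20 CPM per kb in WT. PCDHB2 followed, at 5.97 ± 0.32 CPM per kb in KO and 5.05 ± 0.19 CPM per kb in WT. These 3 levels did not overlap each other in any library of either group. PCDHGB2, at 4.09 ± 0.23 CPM per kb in KO and 4.43 ± 0.48 CPM per kb in WT, led the gamma array, and PCDHB14 came after it, at 3.94 ± 0.34 CPM per kb in KO and 3.51 ± 0.22 CPM per kb in WT. These levels overlapped in KO libraries and not in WT libraries. The next members, PCDHB11, PCDHGB1, PCDHB16, PCDHGA10 and PCDHGC5, ran from 1.74 to 2.09 CPM per kb in KO and from 1.88 to 2.34 CPM per kb in WT, and neighbours among them in that order did not differ beyond their spread in WT. In all, 7 of 16 beta, 5 of 22 gamma and 0 of 15 alpha genes reached a mean of 1 CPM per kb. PCDHB8 and PCDHB13 together held 50.9% to 54.3% of the beta sum. The leading alpha gene, PCDHAC2, was at 0.318 ± 0.045 CPM per kb in KO and 0.378 ± 0.035 CPM per kb in WT.

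**Figure D4:**
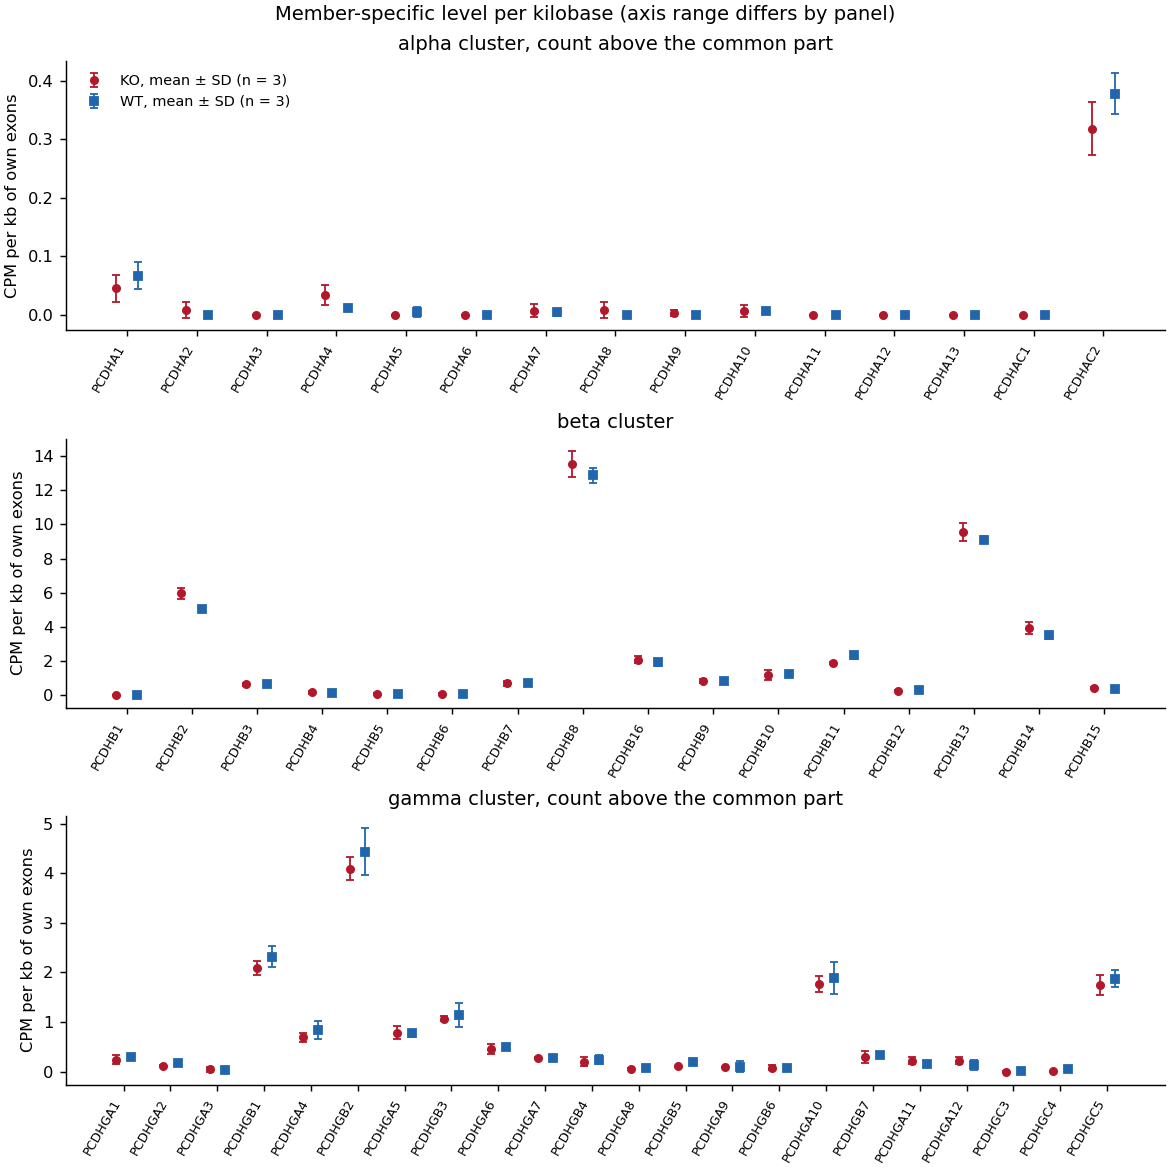
Level of each member in CPM per kilobase of its own exons, as mean and SD over 3 libraries, with KO on the left and WT on the right of each gene and the axis range differing by panel. Beta genes are shown as deposited and alpha and gamma genes above the common part, and PCDHB8, PCDHB13, PCDHB2, PCDHGB2 and PCDHB14 lead in both groups.

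Among proteins that act on the arrays or on what the clustered protocadherins bind, some genes changed. Of 27 tested factors of chromatin architecture and silencing, 4 rose and 0 fell, with a median log2 fold change of 0.05. Over all tested genes 13.5% were called, 6.36% higher in KO and 7.18% lower. STAG1, a cohesin subunit, had 4413, 4334 and 4061 counts in KO, against 3531, 3278 and 3114 in WT, a log2 fold change of 0.38 with an edgeR adjusted p of 1.95e-05. ATF7IP, a partner of the histone methyltransferase SETDB1, rose by 0.20, SMCHD1, which represses the arrays in mice, by 0.17, and TASOR, a scaffold of the HUSH silencing complex, by 0.16 on the log2 scale. CTCF, which binds the promoter element, had 2406, 2455 and 2629 counts in KO, against 2441, 2293 and 2353 in WT, with an edgeR adjusted p of 0.245. It falls outside the rule for named genes and was added for its role. The count of 4 ran from 1 without KO replicate 2 to 9 without WT replicate 1. It was 2 without KO replicate 1, without WT replicate 2 or with library size alone.

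Of 26 tested intracellular partners and processing enzymes, 6 fell and 0 rose, with a median of -0.04, beside 7.18% lower and 6.36% higher of all tested genes. MARCKS, a membrane protein that protein kinase C phosphorylates downstream of gamma protocadherins in mouse neurons, had 1048, 947 and 1024 counts in KO, against 1687, 1809 and 1760 in WT. Its log2 fold change was -0.79 ± 0.06 (SE), with an edgeR adjusted p of 1.72e-09. PTK2B, a kinase that alpha and gamma intracellular ends bind, had 55, 39 and 38 counts in KO, against 76, 68 and 77 in WT, a log2 fold change of -0.73. PRKCA, which encodes a protein kinase C, had 104, 66 and 71 in KO, against 112, 142 and 118 in WT, a log2 fold change of -0.62. FYN, a Src-family kinase, had 814, 816 and 819 in KO, against 978, 1008 and 1031 in WT, a log2 fold change of -0.29. The other 2 called were PTK2 and ABI2, each at -0.13. The count of 6 was 2 without KO replicate 2, without KO replicate 3 or without WT replicate 2.

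Outside the arrays, PCDH1, a protocadherin gene of airway and other epithelia that has no shared exons with them, fell. It had 286, 252 and 238 counts in KO, against 389, 359 and 389 in WT, with no overlap, a log2 fold change of -0.54 ± 0.10 (SE) and an edgeR adjusted p of 9.01e-04. It was the 1 called of 4 tested non-clustered protocadherins, and the other 11 of that list had too few counts. Of 12 tested cadherins and catenins, FAT1 rose by 0.13 and CELSR2 fell by 0.21 on the log2 scale. Of 25 tested neighbours of the arrays on 5q31, GNPDA1 rose by 0.22 and SPRY4 by 0.13, DIAPH1 fell by 0.13 on the log2 scale, and the median was 0.00. The count of 3 was 1 without KO replicate 3 or WT replicate 2, and that of cadherins and catenins was 1 without KO replicate 1, 2 or 3 or WT replicate 2. Between the beta and gamma arrays, TAF7, a subunit of the general transcription factor TFIID, had a log2 fold change of 0.10 with an edgeR adjusted p of 0.143, and SLC25A2 had 0 to 6 counts. The counts called in these lists stand beside 13.5% of all tested genes.

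**Figure D5:**
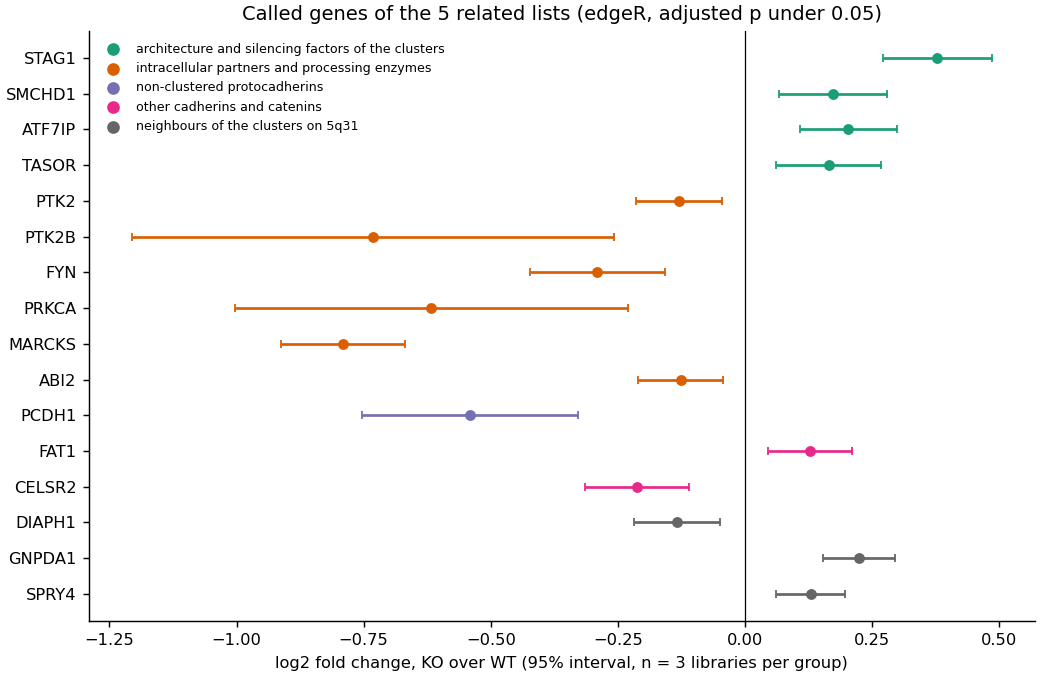
Log2 fold change, KO over WT, with its 95% interval for each gene called in the 5 related lists, coloured by list. The 4 called architecture and silencing factors lie above 0 and the 6 called intracellular partners below it, with MARCKS at -0.79. Of all tested genes, 13.5% were called.

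Markers of cell types were read for the same libraries. Of the epithelial markers, KRT8 and KRT18 were high, at 28.8 and 74.9 CPM in KO and 30.1 and 69.8 CPM in WT. CDH1 was listed at 0 in all 6 libraries, EPCAM stood at 1.07 CPM in KO and 3.43 CPM in WT, and KRT19 at 0.102 and 0.081 CPM. Summed intestinal markers were at 34.7 to 37.5 CPM in KO and 35.0 to 37.1 CPM in WT, with CDX1 at 0. CDX2 and VIL1 held nearly all of this, and KRT20, LGR5 and CDH17 were at most at 0.122 CPM in any library. The 8 neuronal markers summed to 45.7 to 47.5 CPM in KO and 51.1 to 55.7 CPM in WT. TUBB3 held most of this, at 43.0 CPM in KO and 48.9 CPM in WT, and STMN2 and NEFL were at 0 in all libraries. Summed glial markers were at 25.5 to 26.1 CPM in KO and 27.6 to 30.8 CPM in WT, mostly MBP, with OLIG2 at 0. Summed fibroblast markers were at 0.87 to 1.14 CPM in KO and 2.19 to 5.88 CPM in WT, with all 6 in the table and PDGFRB the highest. These 3 lists were lower in every KO library, as was the summed own part of the gamma genes, and their part in that was not tested. WT replicate 3 was the highest library for the gamma own sum and for the fibroblast markers COL1A1, COL1A2, COL3A1, DCN and LUM. COL1A1 was at 1.83 CPM there, against 0.577 and 0.397 CPM in WT replicates 1 and 2. PDGFRB went the other way, at 2.14 CPM in WT replicate 2 against 1.61 and 2.01 CPM in WT replicates 1 and 3. Endothelial markers summed to at most 0.24 CPM. Haematopoietic markers summed to 754 to 759 CPM in KO and 740 to 763 CPM in WT, nearly all of it CD68, a lysosomal protein gene, while PTPRC and CD3E were at 0.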

How the data were processed

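Each library had 1 deposited table of raw counts, with a gene symbol on each line. Per the labels' protocols, RNA was extracted with TRIzol, polyadenylated RNA was made into libraries and paired-end reads of 150 bases were sequenced. Per the submitters' processing notes, TopHat, limma and edgeR were used with the hg38 build. No version or role of these tools, no counting program and no annotation or strand setting is given in the sources used here.

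The fit used edgeR 4.0.16 in R 4.3.3: filterByExpr (minimum count 10, minimum total 15), TMM scaling, a robust quasi-likelihood fit with group as its only term, and Benjamini-Hochberg adjustment over all tested genes at 0.05. For GSK3B, an exact permutation test (two-sided, on log2 CPM) gave p = 0.1, the smallest that 3 against 3 libraries allow. Groups came from the labels, and no 2 libraries of a group agreed within sampling noise. Exon lengths came from GENCODE 29 and promoters from RefSeq. The fit was tested on simulated data.

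Members and lists were chosen with earlier results of these data known. Named genes were GSK3B, all members, up to 4 called genes per list with the largest change, TAF7 and SLC25A2. Others are said to be outside this rule or are given as all that was called. Alternatives were RLE scaling, library size alone, no filter, the replicate number as a block, 1 CPM in 3 libraries, a GC correction, both together, DESeq2 1.42.0, limma-voom (limma 3.58.1), no robust option and each library left out. Counting the common part once was added after seeing the data. Python 3.11.15 was used for the annotation.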

Additional observations from a re-analysis of the deposited data

How the results depend on the processing

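Under each alternative run, alpha genes stayed at 0 called and GSK3B stayed called and lower. The calls over all genes numbered 1951 (917 higher, 1034 lower), 3045 with the GC correction (1980 higher, 1065 lower), 3061 with it and the replicate block and 3032 with it and the common part counted once. With library size alone 650 were higher and 1229 lower. Leaving out 1 library gave 950 (without KO replicate 2) to 2531 (without WT replicate 1) calls, and also with the common part counted once 973 to 2525. Gamma calls were 12 to 22 under the settings that keep all libraries and the deposited counts, 0 without KO replicate 2, KO replicate 3, WT replicate 2 or WT replicate 3, and 22 without KO replicate 1 or WT replicate 1. With the common part counted once, 0 own parts of gamma genes were called in each form run: alone, with the replicate block, with the GC correction, with DESeq2, with limma-voom, and with any library left out. Beta calls were 2 with library size alone and with 1 CPM in 3 libraries, and 0 to 2 with 1 library left out, both on the deposited counts and with the common part counted once. The gamma common part kept its direction, at -0.42 to -0.23 with 1 library left out. It was -0.25 with the GC correction, and stayed called with all libraries kept. For the common part, that correction used the median GC of whole gamma transcripts and not the GC of the shared exons. Own parts kept the GC of whole transcripts. The summed beta log2 ratio was 0.11 with the GC correction, against 0.08. With 1 library left out, the log2 fold change turned its sign for PCDHA4 (-0.30 to 0.032), PCDHB3 (-0.080 to 0.11), PCDHB7 (-0.28 to 0.045), PCDHB9 (-0.14 to 0.070) and PCDHB10 (-0.22 to 0.11), none of them called. The causes were not tested, and some of these settings hold fewer libraries or features. Same-numbered libraries correlated at 0.034, -0.0036 and 0.034 in their deviations from the group means, so the numbers did not pair the samples. The replicate block gave 2193 calls over all genes, 22 gamma calls and 1 beta call. In the alpha array, own counts of 0 to 46 limited what could be tested.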
